A study of Mus musculus with 2 samples.

Results

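The genes described here are 37 genes of glycolysis and of the response to low oxygen, found by symbol among the 55487 gene IDs of the table. They comprise 18 glycolytic enzymes, 4 glucose and lactate transporters, 3 regulators of glycolytic flux, 10 other targets of the hypoxia-inducible factors (HIF) and 2 HIF alpha subunits. RNA was sequenced from 2 cultures of C57BL/6 mouse bone marrow cells, each represented by 1 library. Lineage-negative cells, which lack the surface markers of mature blood cells, were infected with the retrovirus pMYs-IG encoding EVI1 with a 3xHA tag and sorted for GFP 3 days later. They were then plated at 10000 cells in methylcellulose and harvested after about 3 weeks. The EVI1-WT culture carried the wild-type form of this zinc finger transcription factor, and the EVI1+18 culture carried the product of aberrant splicing. Both forms were overexpressed from the vector, a culture without a vector was not analysed here, and the labels do not say how many mice gave the cells. The libraries held 20480447 and 20981903 counts. Mecom, the gene of EVI1, had 3612 and 4481 of them, and the counts do not separate the vector from the endogenous gene.

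Glycolysis converts glucose to pyruvate in the cytosol, and lactate dehydrogenase turns pyruvate into lactate, which leaves the cell through monocarboxylate transporters. Several steps can be carried out by alternative isoforms encoded by separate genes, whose use differs between tissues and blood lineages. When oxygen is low, HIF alpha subunits escape hydroxylation by the EGLN enzymes, pair with ARNT and activate genes that carry a hypoxia response element, among them many glycolytic genes. Mature red cells, which have lost their mitochondria, depend on glycolysis, and neutrophils also rely on it heavily.

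Most of the set lay within 2-fold of equality, and the 7 that stood apart were 3 enzyme isoforms, 2 transporters, Ndrg1 and Hif1a. Levels are given as counts per 1000000 after scaling of the libraries to a common size (scaled CPM). A difference counted as 2-fold where the 95% counting interval of the ratio lay wholly beyond 2-fold. Of the 37 members, 35 reached 1 scaled CPM in a library. Of these, Ldhb and Slc2a3 were at least 2-fold higher in EVI1+18 (2 genes), and Hk3, Eno2, Slc16a3, Ndrg1 and Hif1a at least 2-fold lower (5 genes). These are 5.71% and 14.3% of the members, beside 5.05% and 5.1% of the 13183 genes of the table that passed the same filter (10.1% in either direction). Differences of any size beyond counting error were more often downward, with 26 members lower and 5 higher, or 74.3% and 14.3%. Over all genes that passed the filter, 32.8% were lower and 33.4% higher by that measure. Scaled by total counts, the members split into 24 lower and 6 higher, beside 27.7% lower and 39.1% higher over all genes. The median log2 ratio of EVI1+18 over EVI1-WT was -0.24 over the members and 0.01 over all genes that passed. With 1 library a group no test was run, and the intervals cover counting error only. In such bulk RNA, fewer cells of a type and less RNA per cell cannot be told apart.

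**Figure D1:**
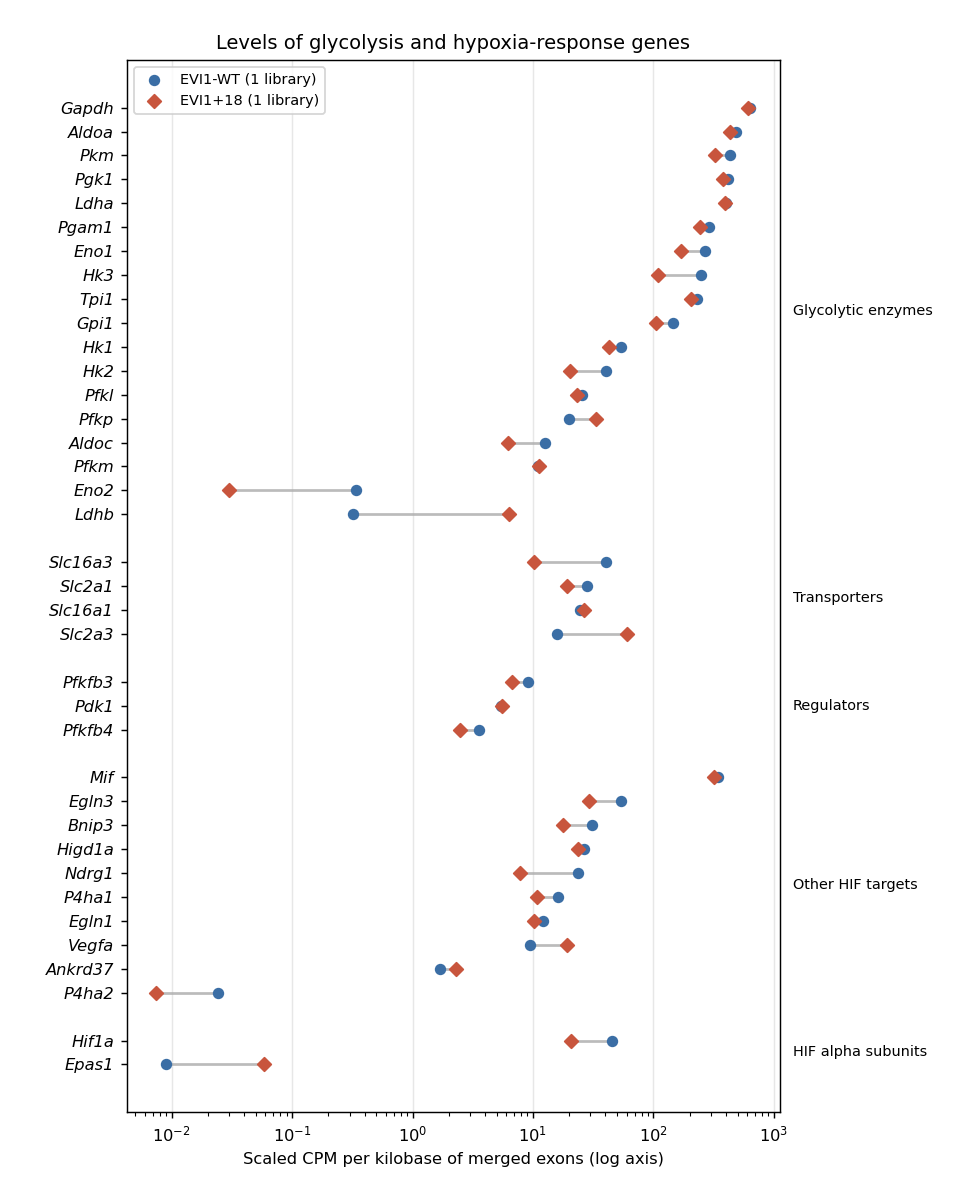
Level of each of the 37 genes in the EVI1-WT library (circles) and the EVI1+18 library (diamonds), in scaled CPM per kilobase of merged exons on a log axis, grouped by role and ordered by the level in EVI1-WT. The core enzymes form close pairs at the right, apart from Hk3, whereas Ldhb, Eno2, Slc2a3, Slc16a3 and Ndrg1 show wide gaps. Epas1 (1 and 7 counts) and P4ha2 (3 and 1 counts) also show wide gaps, at very low counts.

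Short promoter sequences are shown to relate these differences to the hypoxia response element, whose core reads ACGTG or GCGTG. RefSeq windows on GRCm38.p6 were matched by symbol for 34 of the 37 genes, in 48 windows, and not for Slc2a3, Ndrg1 and Epas1. The letters were searched on either strand in the 250 bases before each start, and a palindromic CACGTG, which is also the E-box bound by MYC, counts on each strand. Of the 34 genes, 20 (58.8%) held ACGTG before at least 1 start, beside 18.5% of 27025 genes with windows. The set was chosen as glycolytic genes and HIF targets, and the 27025 genes were not filtered for expression. The shares here are therefore a description only. By window the shares were 47.9% of 48 and 16.6% of 32851. GCGTG, searched the same way, was held by 22 of the 34 genes (64.7%) and by 30.9% of all genes with windows, and the split of ratios is by ACGTG alone. The 160 bases before the start are printed 5′ to 3′ for 3 genes called lower, for Ldha and Pgk1, which were near equality, and for Ldhb, which was called higher. Eno2, also called lower, is not printed, and its 160 bases held 0 matches to ACGTG and 0 to GCGTG. Capitals mark ACGTG or its reverse complement.
Slc16a3, chr11:120948907-120949066, plus strand: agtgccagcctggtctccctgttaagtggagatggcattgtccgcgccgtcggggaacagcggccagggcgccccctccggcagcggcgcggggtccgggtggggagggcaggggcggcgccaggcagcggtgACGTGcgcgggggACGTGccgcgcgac
Hif1a, chr12:73907707-73907866, plus strand: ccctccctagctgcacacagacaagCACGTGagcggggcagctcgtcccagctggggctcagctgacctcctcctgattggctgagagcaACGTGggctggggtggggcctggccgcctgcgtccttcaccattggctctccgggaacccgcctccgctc
Hk3, chr13:55021386-55021545, minus strand: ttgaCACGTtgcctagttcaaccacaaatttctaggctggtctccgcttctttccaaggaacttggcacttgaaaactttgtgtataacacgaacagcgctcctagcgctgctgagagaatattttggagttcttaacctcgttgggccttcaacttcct
Ldha, chr7:46845644-46845803, plus strand: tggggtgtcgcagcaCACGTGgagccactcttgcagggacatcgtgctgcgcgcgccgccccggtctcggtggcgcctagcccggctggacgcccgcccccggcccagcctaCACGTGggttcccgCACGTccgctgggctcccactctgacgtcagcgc
Pgk1, chrX:106186940-106187099, plus strand: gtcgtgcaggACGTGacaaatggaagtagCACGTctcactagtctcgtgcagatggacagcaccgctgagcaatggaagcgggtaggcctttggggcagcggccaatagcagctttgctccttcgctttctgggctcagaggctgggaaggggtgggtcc
Ldhb, chr6:142507958-142508117, minus strand: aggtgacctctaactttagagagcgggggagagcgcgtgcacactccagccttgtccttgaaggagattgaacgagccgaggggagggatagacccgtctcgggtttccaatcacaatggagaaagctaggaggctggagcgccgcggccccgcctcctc
Within the printed bases Ldha held 5 matches, of which 4 come from its 2 CACGTG sites, Hif1a 3, Slc16a3 and Pgk1 2 each and Hk3 1, while the Ldhb window held 0 of ACGTG and 1 match to GCGTG. The Slc16a3, Hif1a and Ldha windows lie inside longer GENCODE gene models, with 14, 0 and 0 of their bases in exons of that strand. Ldha has another window that is not printed, chr7:46846922-46847081, whose 160 bases held 0 matches to ACGTG and 1 to GCGTG. Which start the cells used was not tested.

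Genes with and without these letters overlapped in their ratios. Slc2a3 and Ndrg1, both called 2-fold apart, are in neither group. The 19 genes with ACGTG that passed the filter had a median log2 ratio of -0.42, and 3 were at least 2-fold lower and 0 higher. The 14 without it had a median of -0.17, with 1 lower and 1 higher. Of all genes that passed the filter, 5.1% were 2-fold lower and 5.05% higher. Among the enzymes alone the order was the reverse, at -0.19 for 8 genes with ACGTG and -0.25 for 10 without. The other HIF targets kept the order of the whole set, at -0.40 for 6 tested genes with ACGTG and -0.14 for 2 without. So did the regulators, at -0.43 for 1 gene with it and -0.25 for 2 without. Slc16a3 and Pgk1, with 2 matches each, differed in ratio (0.253 and 0.913). A match is a description of letters and not of binding.

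The core enzymes were abundant in both libraries. Of the 18 enzymes, 15 had ratios below 1, Ldha among them only by some scalings, and beyond counting error 14 were lower and 2 higher. These are 77.8% and 11.1%, beside 32.8% and 33.4% of all genes that passed the filter. Per kilobase of exon, a scale on which genes can be set side by side, Gapdh was first in both libraries, at 639 scaled CPM per kilobase with EVI1-WT and 609 with EVI1+18. Aldoa (aldolase A) followed at 482 and 437. Ldha, Pgk1 and Pkm came next in both libraries, between 398 and 432 in EVI1-WT and between 324 and 392 in EVI1+18. The phosphofructokinases stood far lower, with Pfkl, the liver-type subunit, at 25.6 and 23.1 scaled CPM per kilobase. The 18 enzymes together took 1.38% of all counts with EVI1-WT and 1.20% with EVI1+18.

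Among the core enzymes the size of the difference varied by step. Lactate dehydrogenase A, Ldha, had 1318 scaled CPM with EVI1-WT and 1297 with EVI1+18, a ratio of 0.984 whose interval reached equality (0.967 to 1.0005). Under DESeq2 size factors that ratio was 1.00039 and under total counts 1.03, so no direction can be given for Ldha. Enolase 1, Eno1, which makes phosphoenolpyruvate, stood at 1433 and 915 scaled CPM, 1.57-fold lower (interval 1.54 to 1.60). Pyruvate kinase, Pkm, whose splice forms the counts do not separate, had 2160 and 1620, 1.33-fold lower (1.32 to 1.35). Glucose phosphate isomerase, Gpi1, had 941 and 679, 1.39-fold lower (1.36 to 1.42). Aldoa, Pgk1, Tpi1 and Pgam1 were closer to equality, with ratios from 0.844 to 0.913.

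Gapdh, often used as a reference gene, had 52853 counts with EVI1-WT and 53975 with EVI1+18, a ratio of 0.953 (0.942 to 0.965), and 0.997 under total counts. The 70 annotated genes that share at least 3% of its 50-base words held 176304 and 173184 counts, which is 334% and 321% of the counts at Gapdh itself. With these copies added the ratio was 0.925 (0.920 to 0.931). Some copies had nearly equal counts, such as Gm10359 with 12922 and 12583 and Gm12671 with 13040 and 12634. Whether the same reads were counted at several copies is not known. The interval treats all counts as separate reads and is too narrow if they are not. The level of Gapdh is therefore uncertain, and 24.7% of its 50-base words occur in other annotated transcripts. Copies also exist for Pgk1, with 53.9% of words shared, for Pgam1, with 36.2%, and for Eno1, but their copies held at most 13.2% of the counts at the gene in EVI1-WT. Of the members called 2-fold apart, Ldhb has a processed pseudogene that had 1 and 2 counts, and its ratio with that copy added was 18.2. The other 6 share at most 1.72% of their words.

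Of the enzyme isoforms of low abundance, Ldhb was higher in EVI1+18 and Eno2 and Aldoc were lower. The heart-type lactate dehydrogenase Ldhb (ENSMUSG00000030246; GRCm38 chromosome 6, 142490249 to 142507957, minus strand) had 10 counts with EVI1-WT and 212 with EVI1+18. These are 0.499 and 9.88 scaled CPM, a 19.8-fold higher level with an interval of 10.6 to 41.9. Even so, Ldha made 98.4% of the reads per kilobase of the pair in EVI1+18 and 99.9% in EVI1-WT. The neuronal enolase Eno2 (ENSMUSG00000004267; chromosome 6, 124760053 to 124769673, minus strand) was near the limit of detection, with 32 and 3 counts and a ratio of 0.0875 (0.0171 to 0.280). The brain-type aldolase Aldoc had 830 and 436 counts, or 41.4 and 20.3 scaled CPM. It was 2.04-fold lower, and its interval of 1.81 to 2.30 kept it just outside the 2-fold rule.

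Hexokinases trap glucose in the cell by phosphorylation, and Hk3, the isoform of myeloid cells, led the family in both libraries. Hk3 (ENSMUSG00000025877; chromosome 13, 55005985 to 55021385, minus strand) had 907 scaled CPM with EVI1-WT and 403 with EVI1+18, 2.25-fold lower (2.19 to 2.31). Hk2, an inducible isoform bound to mitochondria, had 239 and 122, 1.96-fold lower (1.87 to 2.06). Hk1, the broadly expressed isoform that also serves red cells, had 460 and 363 and was 1.27-fold lower (1.23 to 1.31). All 3 genes were thus lower, and their proportions shifted. Hk1 made 15.8% of hexokinase reads per kilobase with EVI1-WT and 24.6% with EVI1+18, Hk3 72.4% and 63.5%, and Hk2 11.8% in each.

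Phosphofructokinase, which commits sugar to glycolysis, had a different leading isoform in each library. The platelet-type Pfkp had 267 scaled CPM with EVI1-WT and 446 with EVI1+18, 1.67-fold higher (1.62 to 1.73), while Pfkl had 171 and 154 and the muscle-type Pfkm 36.8 and 37.7. Of the family's reads per kilobase, Pfkl held 45.2% with EVI1-WT and 34.1% with EVI1+18, and Pfkp 35.2% and 49.2%. A ratio of 2 genes within a library does not depend on how the libraries were scaled, and Pfkp over Pfkl was 1.85-fold higher in EVI1+18 (1.75 to 1.96). Without a length correction, Pfkp leads in both libraries.

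**Figure D2:**
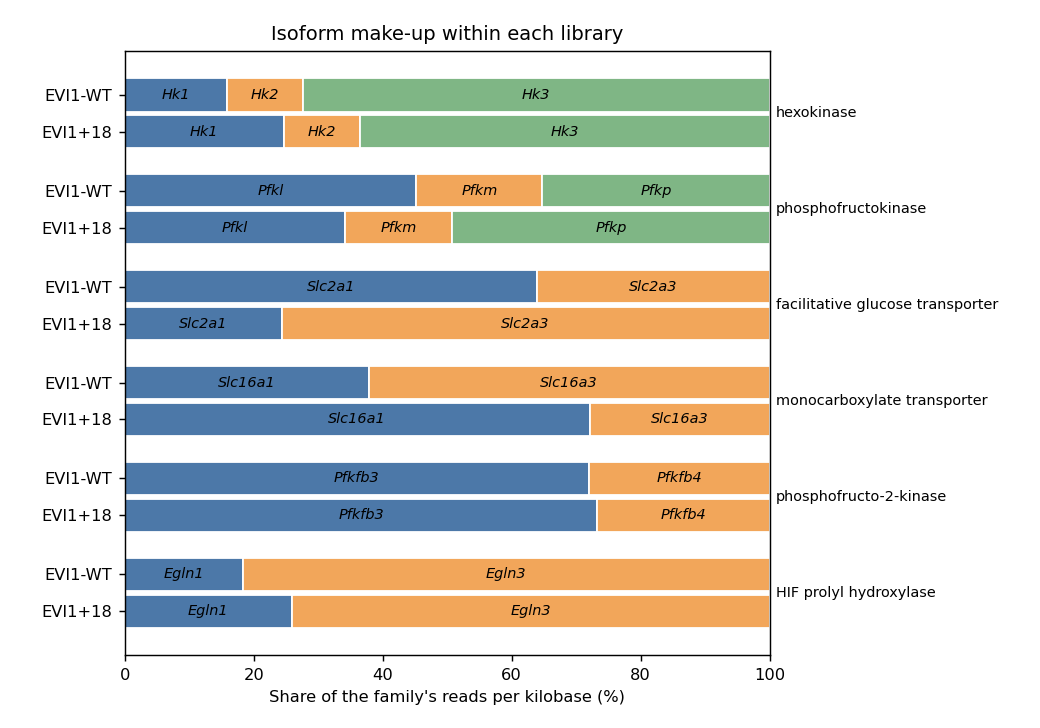
Share of each family's reads per kilobase of merged exons held by each isoform, in percent, with 1 bar for each library. In EVI1+18 the larger share passes from Slc2a1 to Slc2a3, from Slc16a3 to Slc16a1 and from Pfkl to Pfkp, while Hk3, Pfkfb3 and Egln3 lead in both libraries.

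Among the transporters, Slc2a3, for glucose entry, was higher in EVI1+18 and Slc16a3, for lactate exit, was lower. Slc2a3, the high-affinity glucose transporter GLUT3 (ENSMUSG00000003153; chromosome 6, 122727809 to 122801640, minus strand), had 116 scaled CPM with EVI1-WT and 434 with EVI1+18, 3.75-fold higher (3.58 to 3.92). Slc2a1, the GLUT1 transporter of most cells, had 99.3 and 67.5, 1.47-fold lower (1.37 to 1.57). Slc2a3 held 36.1% of the reads per kilobase of the pair with EVI1-WT and 75.7% with EVI1+18, and its ratio to Slc2a1 was 5.51-fold higher (5.08 to 5.98).

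Slc16a3, which encodes MCT4, a lactate exporter of strongly glycolytic cells and a known HIF target (ENSMUSG00000025161; chromosome 11, 120948480 to 120960868, plus strand), had 216 scaled CPM with EVI1-WT and 54.6 with EVI1+18. It was 3.95-fold lower (3.70 to 4.22). ACGTG lies just before a RefSeq start inside this gene model, and use of that start was not tested. Slc16a1, which encodes MCT1, a carrier that moves lactate in either direction, had 109 and 117, a ratio of 1.07 (1.01 to 1.14). Slc16a1 thus held 37.8% of the reads per kilobase of this pair with EVI1-WT and 72.1% with EVI1+18, and its ratio to Slc16a3 was 4.24-fold higher (3.89 to 4.63). In 3 of 11 isoform families, namely the phosphofructokinases and the 2 transporter pairs, the leading member per kilobase differed between the libraries. Without a length correction this held for the monocarboxylate transporters alone (1 of 11).

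The regulators of flux were close to equality or slightly lower. Pfkfb3 and Pfkfb4 make fructose 2,6-bisphosphate, the activator of phosphofructokinase. Pfkfb3 had 68.5 scaled CPM with EVI1-WT and 51.0 with EVI1+18, 1.34-fold lower (1.24 to 1.46), and Pfkfb4 had 345 and 257 counts, 1.44-fold lower (1.22 to 1.70). The proportion of the pair was alike, with a change of 1.07 and an interval of 0.894 to 1.28. Pdk1, a HIF target whose product inhibits pyruvate dehydrogenase, had 42.4 and 42.9, with an interval of the ratio from 0.921 to 1.11.

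**Figure D3:**
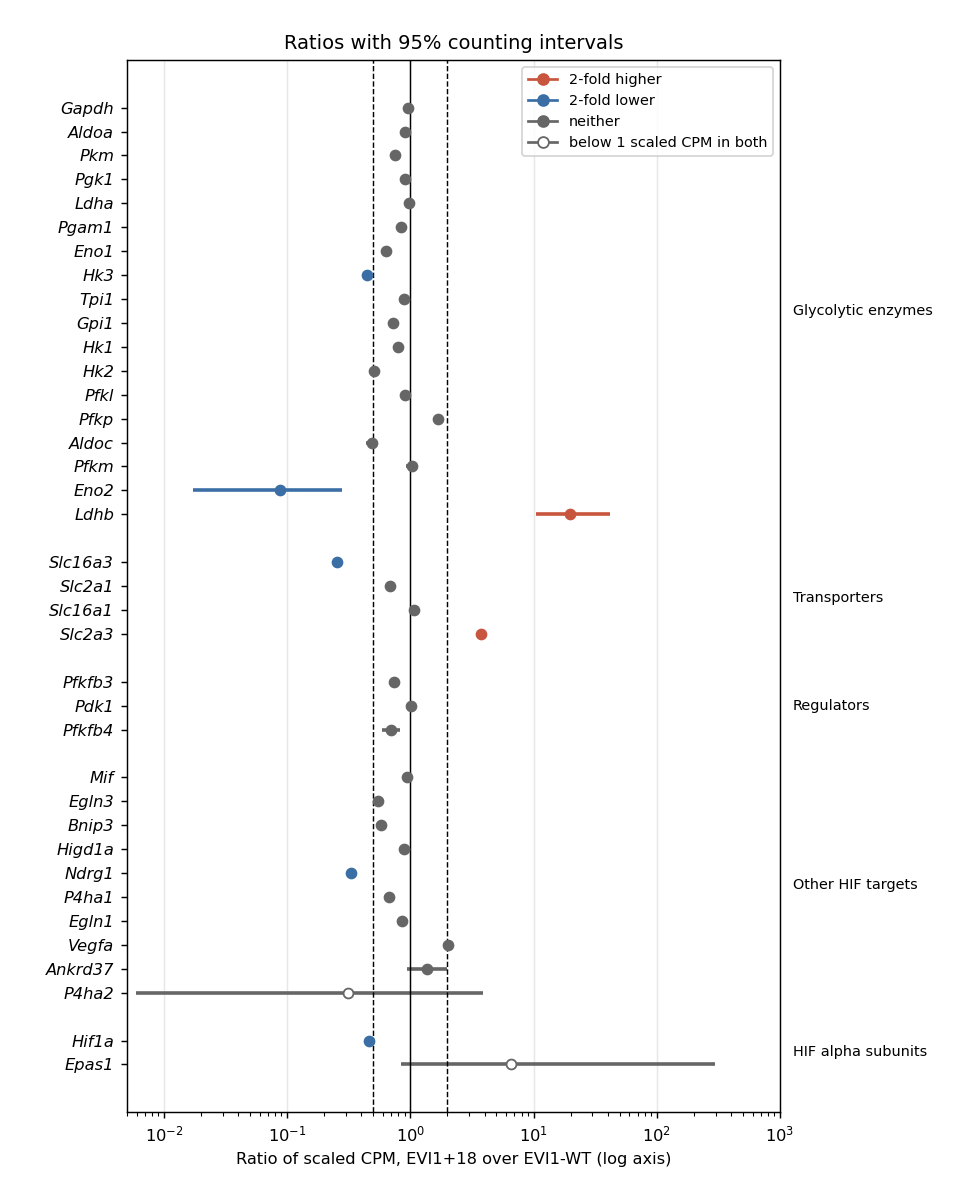
Ratio of scaled CPM in EVI1+18 over EVI1-WT for each gene, on a log axis, with 95% counting intervals as bars. The solid line marks equality and the dashed lines 2-fold in each direction, and 7 genes have whole intervals outside the dashed lines. Open circles are the 2 genes below 1 scaled CPM in both libraries.

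Among the other HIF targets, 1 of the 9 that passed the filter was at least 2-fold lower and 0 were at least 2-fold higher. Of all genes that passed, 5.1% were 2-fold lower and 5.05% higher, so 1 gene of 9 does not set this group apart. Ndrg1, a stress-responsive gene linked to differentiation (ENSMUSG00000005125; chromosome 15, 66929318 to 66969640, minus strand), had 157 scaled CPM with EVI1-WT and 51.5 with EVI1+18, 3.05-fold lower (2.84 to 3.27). Egln3, an oxygen-sensing prolyl hydroxylase that HIF induces, had 143 and 78.4, 1.82-fold lower (1.71 to 1.93). Bnip3, which marks mitochondria for removal, had 69.6 and 40.1, 1.74-fold lower (1.59 to 1.89). P4ha1, a collagen prolyl hydroxylase subunit, had 65.9 and 44.0, a ratio of 0.669 (0.614 to 0.728).

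The remaining targets were nearer to equality apart from Vegfa. Vegfa, the vascular growth factor, was at 40.8 scaled CPM with EVI1-WT and 82.2 with EVI1+18, 2.01-fold higher with an interval of 1.85 to 2.19, just short of the rule. Egln1, the main oxygen sensor, had 43.2 and 37.0, a ratio of 0.856 (0.776 to 0.943), and Higd1a, a mitochondrial protein induced by low oxygen, 80.8 and 71.5, a ratio of 0.884 (0.824 to 0.949). The cytokine Mif had 255 and 238, a ratio of 0.937 (0.901 to 0.974). Ankrd37 was low, with 52 and 76 counts and an interval that included equality (0.946 to 1.98). On the other strand, 22.7% of its exon bases overlap Lrp2bp, which had 4 and 0 counts, and 3.70% overlap Ufsp2, with 1550 and 1288. P4ha2 had 3 and 1 counts, so both libraries were at or under the 3 counts that a count of 0 allows, and no fold is given. P4ha1 held 99.9% of the reads per kilobase of the pair in each library.

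Of the HIF alpha subunits, Hif1a was lower in EVI1+18 and Epas1 was nearly undetected. Hif1a (ENSMUSG00000021109; chromosome 12, 73901375 to 73947530, plus strand) had 5351 counts with EVI1-WT and 2642 with EVI1+18. These are 267 and 123 scaled CPM, 2.17-fold lower (2.07 to 2.27). Scaled by total counts alone its ratio was 0.482 in place of 0.461, and its interval then crossed 2-fold, so the call for Hif1a rests on the scaling. Epas1, which encodes HIF-2 alpha, had 1 and 7 counts, a ratio of 6.53 with an interval of 0.839 to 294. HIF alpha is controlled mainly at the level of protein stability, which RNA counts do not show.

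The glycolytic enzymes and the other HIF targets had medians that were close at 1 scaled CPM and further apart under other filters. The median log2 ratio was -0.21 for the 18 enzymes and -0.22 for the 9 other targets, a difference of 0.02. In each group 77.8% of genes were lower beyond counting error, 14 of 18 and 7 of 9, beside 32.8% of all genes that passed the filter. The difference was 0.20 without a filter and 0.10 between means. At 5 scaled CPM, which drops Eno2 and Ankrd37, the enzymes stood at -0.17 and the other targets at -0.40, a difference of 0.23.

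The surrounding pathways were described with 113 further genes in 7 lists, of which 91 passed the filter. Among them 8 were 2-fold lower by the rule and 2 were 2-fold higher, and the median log2 ratio was -0.07. The called genes made up 10.99% of the 91, beside 10.1% of all genes that passed the filter. By direction, 5.1% of all genes were 2-fold lower and 5.05% higher. The counts for each list below are to be read beside these shares. Further hypoxia-response genes had 1 of 29 higher and 4 lower, and a median of -0.21. The oxidase Ero1l, of the endoplasmic reticulum, was abundant at 1353 scaled CPM with EVI1-WT and 451 with EVI1+18, 3.00-fold lower (2.93 to 3.07). Haem oxygenase 1, Hmox1, had 149 and 49.1, 3.04-fold lower (2.84 to 3.27). The carbonic anhydrase Car12, at 12.5 and 3.78, also passed 2-fold, with a level 3.32-fold (2.57 to 4.32) below EVI1-WT. The gene that was higher is Rora, named although its level was under 5 scaled CPM, with 1 and 40 counts and a ratio of 37.3 (6.33 to 1511).

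Components of the HIF pathway had a median log2 ratio of 0.01, with 1 of 11 at least 2-fold lower and 0 higher. That gene was Arnt2, a HIF partner known mainly from neurons, at 77.2 scaled CPM with EVI1-WT and 15.7 with EVI1+18, 4.93-fold lower (4.38 to 5.56). The general partner Arnt had 54.0 and 54.2, with an interval of the ratio from 0.924 to 1.09. Of 13 other glycolysis and gluconeogenesis genes, 2 were lower and 0 higher. They were the hexokinase-like Hkdc1, 4.64-fold lower (3.47 to 6.28), and the lysosomal sugar transporter Slc2a6, 2.43-fold lower (2.24 to 2.64). The red-cell pyruvate kinase gene Pklr had 0 counts with EVI1-WT and 19 with EVI1+18, below the filter, and Bpgm, which makes the haemoglobin regulator 2,3-bisphosphoglycerate, had 340 and 405 counts, a ratio of 1.11 (0.960 to 1.29).

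The list around pyruvate entry to the mitochondria had a median log2 ratio of 0.22 over 11 genes. It mixes carriers and pyruvate dehydrogenase genes with relatives of Pdk1, which inhibit that enzyme, so the median gives no direction of pyruvate entry or use. Beyond counting error 7 of the 11 genes were higher, Pdk2 and Pdk3 among them, and 1 was lower, beside 33.4% and 32.8% of all genes. The kinase gene Pdk2, also named although its level was under 5 scaled CPM, was the 1 gene of this list at least 2-fold higher, with 7 and 47 counts and a ratio of 6.27 (2.81 to 16.4). The 8 pentose phosphate genes and 11 glycogen genes had 0 members 2-fold apart, with medians of -0.15 and -0.35. Of 8 genes of the MYC and MLX network, the MYC antagonist Mxd1 was 2.43-fold lower (2.26 to 2.61) and 0 were 2-fold higher, and Myc itself had a ratio of 1.12 (1.06 to 1.17).

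**Figure D4:**
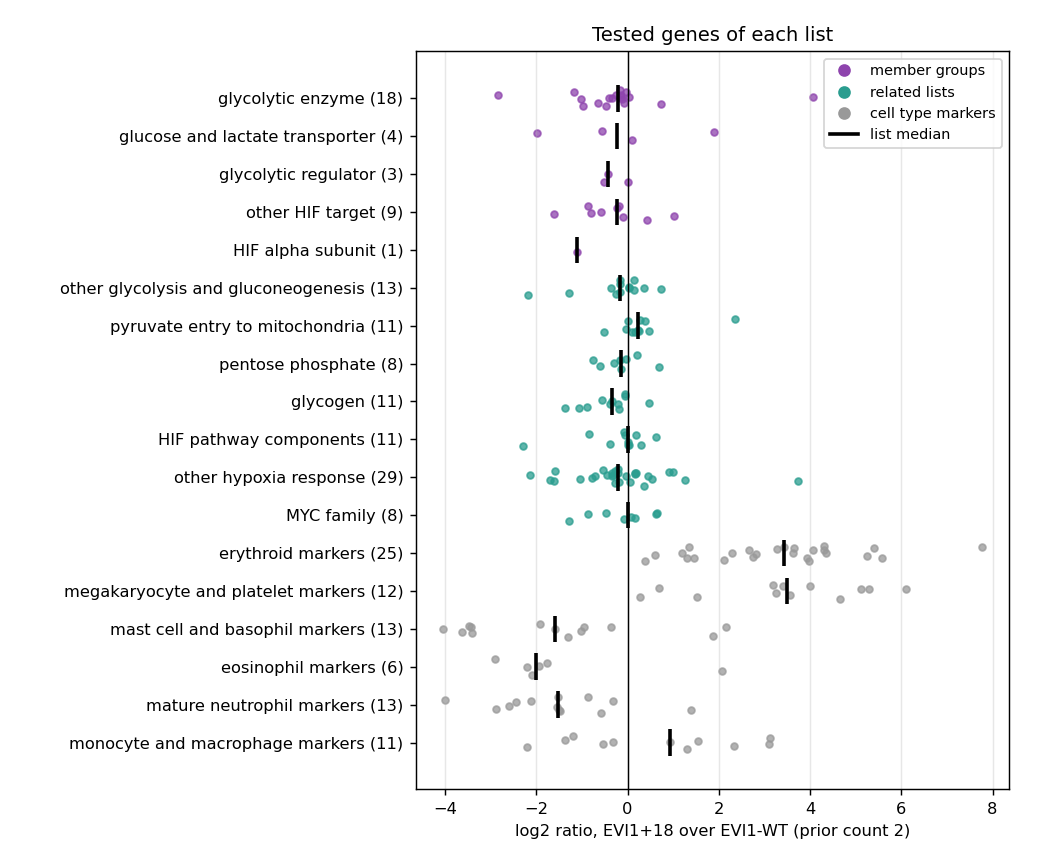
Log2 ratio of EVI1+18 over EVI1-WT (prior count of 2) for each gene that passed the filter, by list, with the number of genes in brackets and a bar at the median. The glycolytic, hypoxia and related lists have medians between -1.12 and 0.22, whereas erythroid and platelet markers have medians of 3.43 and 3.49 and eosinophil markers a median of -2.01.

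Markers of blood lineages had medians further from equality than most of the metabolic lists, and their part in the differences above was not tested. For the counts that follow, 5.05% of all genes that passed the filter were 2-fold higher and 5.1% lower. Of 25 erythroid markers, 21 were at least 2-fold higher in EVI1+18 and 0 lower, and their summed level was 2220 scaled CPM with EVI1-WT and 14729 with EVI1+18. Of 12 megakaryocyte and platelet markers that passed the filter, out of 15, 10 were higher and 0 lower (744 and 2036), with Tubb1 at 0 counts in EVI1-WT. Lists that went the other way were mast cells and basophils, with 8 of 13 lower and 2 higher (8247 and 1723 summed scaled CPM), eosinophils with 5 of 6 lower and 1 higher (866 and 176), and mature neutrophils with 8 of 13 lower and 0 higher (4832 and 1488). Monocyte and macrophage markers split, with 5 of 11 higher and 2 lower (2310 and 4265). Tpsab1 of the mast cell list and C1qa of the macrophage list had 0 counts in both libraries. Lineage make-up and the form of EVI1 cannot be told apart for Hk3, Slc16a3, Slc2a3, Ldhb or any other gene of the set.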

How the data were processed

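The values are read counts per Ensembl gene, deposited by the authors without normalization. HISAT2 2.2.1, featureCounts and edgeR with build GRCm38 are named in the submitters' processing notes, and the sources used here do not give the strand setting or the handling of multiply mapped reads. All columns were mapped to a library by name (0 left over). Symbols, lengths and coordinates came from GENCODE M21 for 55227 of 55487 IDs, and for Aldoa the ID with most reads was used.

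Scaling was by TMM (edgeR 4.0.16, R 4.3.3). Ratios carry 95% Clopper-Pearson counting intervals (scipy 1.17.1). A count of 0 allows 3 counts, or 0.150 and 0.140 scaled CPM. The intervals cover counting error only, and no molecular identifiers are described. Log2 ratios used a prior count of 2. Isoform ratios carry Woolf intervals, or exact conditional ones where a count was under 100. Shared sequence was measured as 50-base words of GENCODE transcripts. Every member is accounted for, and of the related lists up to 12 genes at least 2-fold apart with 5 scaled CPM could be named, though not all are reported here. The members and lists were chosen with earlier results of these data known. The 2-fold rule was first run on simulated counts that varied by counting error alone, which cannot show how it fares with variation between cultures. Alternatives were other scalings (DESeq2 1.42.0 size factors, total counts, upper quartile), filters, prior counts, a 1.5-fold call, means and other lengths. No model across replicates was fitted, since each group has 1 library.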

Additional observations from a re-analysis of the deposited data

How the results depend on the processing

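Of the 37 member ratios, 13 left their counting interval under total counts, 3 under DESeq2 size factors and 0 under the upper quartile. The call for Hif1a was lost under total counts, which left 4 members at least 2-fold lower, and the filter at 5 scaled CPM also left 4. Total counts moved the median of all genes from 0.01 to 0.08 on the log2 scale and the enzyme median to -0.14. At 5 scaled CPM the enzyme median was -0.17, that of the other HIF targets -0.40 and their difference 0.23, where Eno2 and Ankrd37 dropped out. Without a filter, where P4ha2 came in, the targets stood at -0.40. The transporter mean was -0.13, beside a median of -0.23. A call at 1.5-fold gave 4 of 35 members higher and 10 lower, and 5 and 15 of 91 related genes. Of the 13183 genes of the table that passed the filter, it gave 1093 higher and 1290 lower. At 5 scaled CPM, 431 of 10585 genes of the table and 0 related genes were at least 2-fold higher. At 1 scaled CPM these were 666 of 13183 genes and 2 related genes. Without a length correction, 1 family changed its leading isoform. Adding annotated copies, an alternative chosen after seeing the data, moved Gapdh beyond its interval and left 11 other members within theirs. No paired analysis was possible because each group has 1 library. Depth limits Eno2, Epas1, P4ha2 and Ankrd37.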

Other observations

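The libraries also differed in a gene of the Y chromosome. Eif2s3y had 2002 counts with EVI1-WT and 1 with EVI1+18, whereas Ddx3y had 1545 and 1626, Uty 584 and 498 and Kdm5d 614 and 590. What this says about the source animals was not tested.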
